A study of Mus musculus with 9 samples.

Results

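The genes described here encode members of families of histone and DNA modifying enzymes, measured in mouse liver. Some of them act on other substrates, as given below. They are histone deacetylases and sirtuins, lysine acetyltransferases, lysine methyltransferases and demethylases, DNA methyltransferases and TET dioxygenases. Members were chosen by gene symbol alone (Hdac, Sirt, Kat, Kdm, Kmt2, Dnmt, Tet, Ezh, Suv39h, Setd, Setdb and Ehmt followed by a number), which gave 72 of the 23440 symbols in the tables. The symbol rule uses no measured value, though the gene families were picked with earlier results of these data known.

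The study sequenced liver RNA of C57Bl6 mice in 3 groups of 3 libraries each. Young untreated mice were 2 months old, aged untreated mice were 20 to 22 months old, and treated mice were 20 to 22 months old and had eaten chow with PD-0332991 for 2 weeks. PD-0332991 is palbociclib, an inhibitor of the kinases CDK4 and CDK6, and its amount in chow is labelled 450 mg/k. The labels name no altered gene in any group. Whether replicate libraries stand for different animals is not stated, so p-values here measure the spread between libraries, which may be technical.

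Acetyl and methyl groups on histone tails, and methyl groups on cytosines in DNA, set how accessible a gene is to the transcription machinery. Writers add these groups and erasers take them off: acetyltransferases and deacetylases work on acetyl groups, and methyltransferases and demethylases on methyl groups. Many of the enzymes use metabolites as donors or cofactors, among them acetyl-CoA, S-adenosylmethionine, NAD+ and 2-oxoglutarate, all of which the liver makes in quantity. CDK4 and CDK6 phosphorylate the retinoblastoma protein, which recruits deacetylases and methyltransferases to promoters bound by E2F factors.

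Promoter sequences were read from RefSeq (build GRCm38.p6), where 60 of the 72 members matched and gave 87 promoters of 250 bases before to 50 bases after the start site. The 3 promoters printed first belong to Kdm4a, Kat2b and Setdb1, which carry calls described below and are shown for their CG content (Hdac1, the other member called, is not in the table). Each line gives the 250 bases before the start site, 5′ to 3′ on the strand of the gene, with CG dinucleotides, the sites of DNA methylation, in capitals. The Kdm4a stretch is chr4:118180044-118180293 (minus strand, 12 CG), the Kat2b stretch is chr17:53566721-53566970 (plus strand, 6 CG, first of 2 promoters) and the Setdb1 stretch is chr3:95357203-95357452 (minus strand, 13 CG).
Kdm4a: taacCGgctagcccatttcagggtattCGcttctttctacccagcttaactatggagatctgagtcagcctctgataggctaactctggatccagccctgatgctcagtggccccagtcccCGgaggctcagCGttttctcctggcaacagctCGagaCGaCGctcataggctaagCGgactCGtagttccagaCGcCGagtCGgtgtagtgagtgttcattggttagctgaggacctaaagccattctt
Kat2b: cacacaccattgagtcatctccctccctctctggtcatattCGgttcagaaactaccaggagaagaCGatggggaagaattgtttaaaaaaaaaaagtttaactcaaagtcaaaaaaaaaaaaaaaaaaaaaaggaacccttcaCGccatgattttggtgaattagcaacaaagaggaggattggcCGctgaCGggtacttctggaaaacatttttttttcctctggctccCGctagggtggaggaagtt
Setdb1: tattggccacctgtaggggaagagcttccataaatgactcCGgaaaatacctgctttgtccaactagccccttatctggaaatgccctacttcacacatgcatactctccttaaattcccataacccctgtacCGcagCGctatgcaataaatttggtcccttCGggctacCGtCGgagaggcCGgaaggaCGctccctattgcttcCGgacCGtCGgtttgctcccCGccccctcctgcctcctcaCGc

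The E2F letters TTTGGCGC, TTTCCCGC, TTTGGCGG and TTTCGCGC were searched on both strands, since the drug acts upstream of E2F factors. TTTGGCGC and TTTGGCGG share their first 7 letters, and each match was counted by its own motif. Of the 87 members' promoters 4 held a match (4.60%), beside 777 of all 32851 promoters in the table (2.37%). These matches lay in promoters of Dnmt1, Ezh2, Hdac6 and Sirt4, and are shown with up to 10 bases on each side and the motif, or its reverse complement, in capitals. Positions are those of the first capital, negative before the start site. The members' promoters had a median GC content of 62.0%, beside 52.7% for all promoters, and a median ratio of observed to expected CG of 0.796, beside 0.384. A match describes letters only.
Dnmt1, position -219 of promoter 3: gtttccgcgcGCGCGAAAaagccggggt
Dnmt1, position 34 of promoter 3: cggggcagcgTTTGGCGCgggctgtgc
Ezh2, position 4: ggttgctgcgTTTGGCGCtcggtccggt
Hdac6, position -97: tcgccgggaaTTTGGCGGcgtgagccta
Sirt4, position -9: cggctgaaggTTTCCCGCtgagcattct

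Values are in TPM, a relative abundance per transcript length that is scaled to a fixed total. Genes of at least 1 TPM in at least 3 libraries were tested (10161 genes), on the log2(TPM + 0.5) scale with limma, and called at a Benjamini-Hochberg adjusted p under 0.05. Of the 72 members 64 passed that filter. The other 8 were Dnmt3b, Dnmt3l, Hdac4, Hdac9, Kdm4d, Setd7, Suv39h2 and Tet1. TPM keeps no depth, so the depth behind the values is unknown. The listed TPM summed to between 530575 and 576173 per library, so the tables hold only part of what was quantified, and the hepatocyte gene Alb was listed at 0 throughout, while the other 8 listed hepatocyte markers summed to 19042 to 24377 TPM. All 3 treated libraries had fewer genes of 1 TPM or more (9543 to 9611) than the untreated ones (9794 to 9989), and the median of all tested genes was -0.09 (log2) in treated against aged livers and -0.10 in treated against young livers. Scaling the libraries by the median of ratios moved these medians to 0.01 and 0.02, so levels below are also read against them. Of all genes, 62 were called higher and 85 lower in treated against aged livers, and 119 and 55 with that scaling or 88 and 56 with quantile normalization. Against young livers 263 and 436 were called, and 386 and 228 or 308 and 310 with the other scalings.

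Most of these enzymes were transcribed at low levels. Over all libraries the median of the members' mean levels was 2.86 TPM (3.20 for the 64 tested, beside 6.59 for all tested genes). A mean of 5 TPM or more was reached by 22 members and of 20 TPM or more by 4, namely Sirt3, Setd3, Sirt7 and Sirt2. Together the members summed to 402 to 430 TPM in young libraries, 377 to 420 in aged untreated and 335 to 357 in treated libraries, and a level of 1 TPM or more was reached by 60 to 63, 60 to 62 and 56 of them. Replicates of a group spread by a median SD of 0.160 on the log2 scale for the members, beside 0.181 for all tested genes. Ehmt2 (0.084) spread least, and Hdac8 (0.53), Kdm5b (0.38) and Ezh2 (0.32) spread most.

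**Figure D1:**
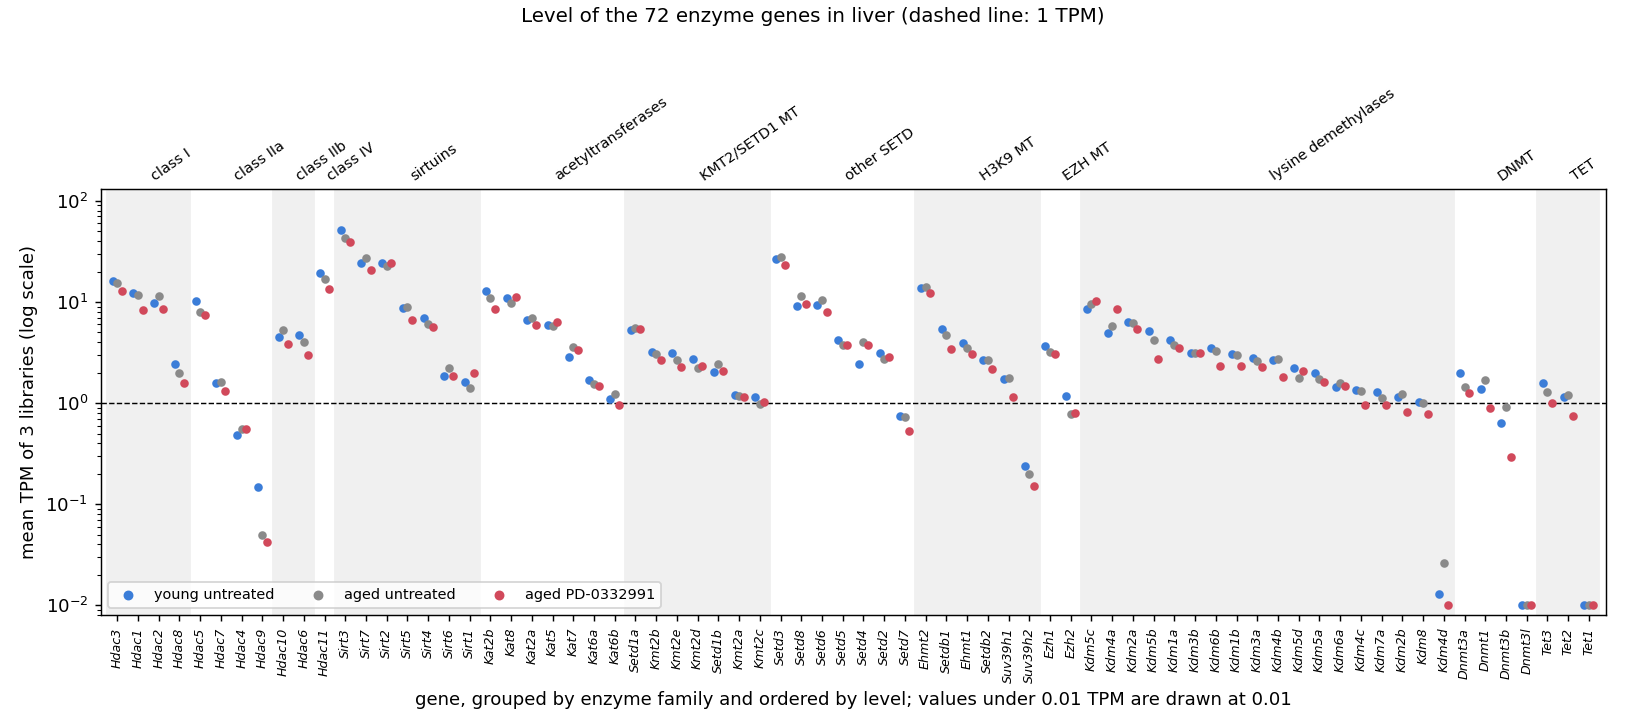
Mean TPM (log scale) of each of the 72 genes in young untreated, aged untreated and treated livers, with genes grouped by enzyme family along the horizontal axis and a dashed line at 1 TPM. Each point is the mean of 3 libraries. Sirt3 is the highest member (51.8 TPM in young livers), and Dnmt3l, listed at 0, and Tet1 are the lowest.

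With age, no member was called by limma in either direction, beside 0.650% of all tested genes called higher and 0.453% called lower. At an unadjusted p under 0.05, 2 members were higher (Setd4 and Setd8) and 1 was lower (Hdac5), beside 7.56% and 7.43% of all genes. In 4 members all aged libraries lay above all young ones (Kat7, Kdm4a, Setd4 and Setd8), and in 3 they lay below (Hdac5, Kdm5d and Tet3). These are 6.25% and 4.69% of the 64, beside 8.82% and 9.57% of all genes. The members' median log2 difference between aged and young was -0.05, with 40 of 64 below 0, beside a median of -0.01 and 52.1% below 0 for all genes. No member was called with age in any of the alternative settings either.

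In aged livers given PD-0332991, again no member was called against aged untreated livers, beside 0.610% of all genes called higher and 0.837% called lower. The unadjusted p was under 0.05 for 2 members that were higher (Kdm4a and Sirt1, beside 4.96% of all genes) and for 14 that were lower, which is 21.9% of the 64, beside 13.3% of all genes. All treated libraries lay above all aged untreated ones in 3 members (Kat8, Kdm4a and Kdm5d), beside 5.72% of all genes, and below them in 20, which is 31.3% of the 64, beside 16.7%. With median-of-ratios scaling that second count was 8 members, beside 9.07% of all genes, and with quantile normalization 9, beside 10.6%. The median log2 difference of the members was -0.18 (lowest -0.65, highest 0.51), and 42 of 64 lay below the median of all genes. Below 0 lay 52 of 64 members, beside 66.7% of all genes. Under either other scaling 41 were below 0 (beside 48.6% of all genes with the median of ratios and 52.9% with quantile normalization), and 11 changed sign, among them Ezh1, Hdac5, Kat7, Kdm6a and Kmt2a.

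Treated aged livers set against young livers gave 4 called members. Kdm4a was higher, beside 2.59% of all genes called higher, and Hdac1, Kat2b and Setdb1 were lower, which is 4.69% of the 64, beside 4.29% of all genes called lower. At an unadjusted p under 0.05 there were 2 higher members (Kdm4a and Setd4) and 16 lower (25.0% of the 64), beside 6.87% and 18.0%. Without overlap between groups, 4 members were higher (Kat7, Kdm4a, Kdm5c and Setd4) and 26 were lower (40.6% of the 64), beside 9.55% and 24.4% of all genes. The lower count was 16 under each of the other scalings, beside 14.2% of all genes with the median of ratios and 17.2% with quantile normalization. The members' median was -0.22, with 48 of 64 below the median of all genes. Both this comparison and the previous one use the treated libraries, and this one combines the age and the treatment difference.

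**Figure D2:**
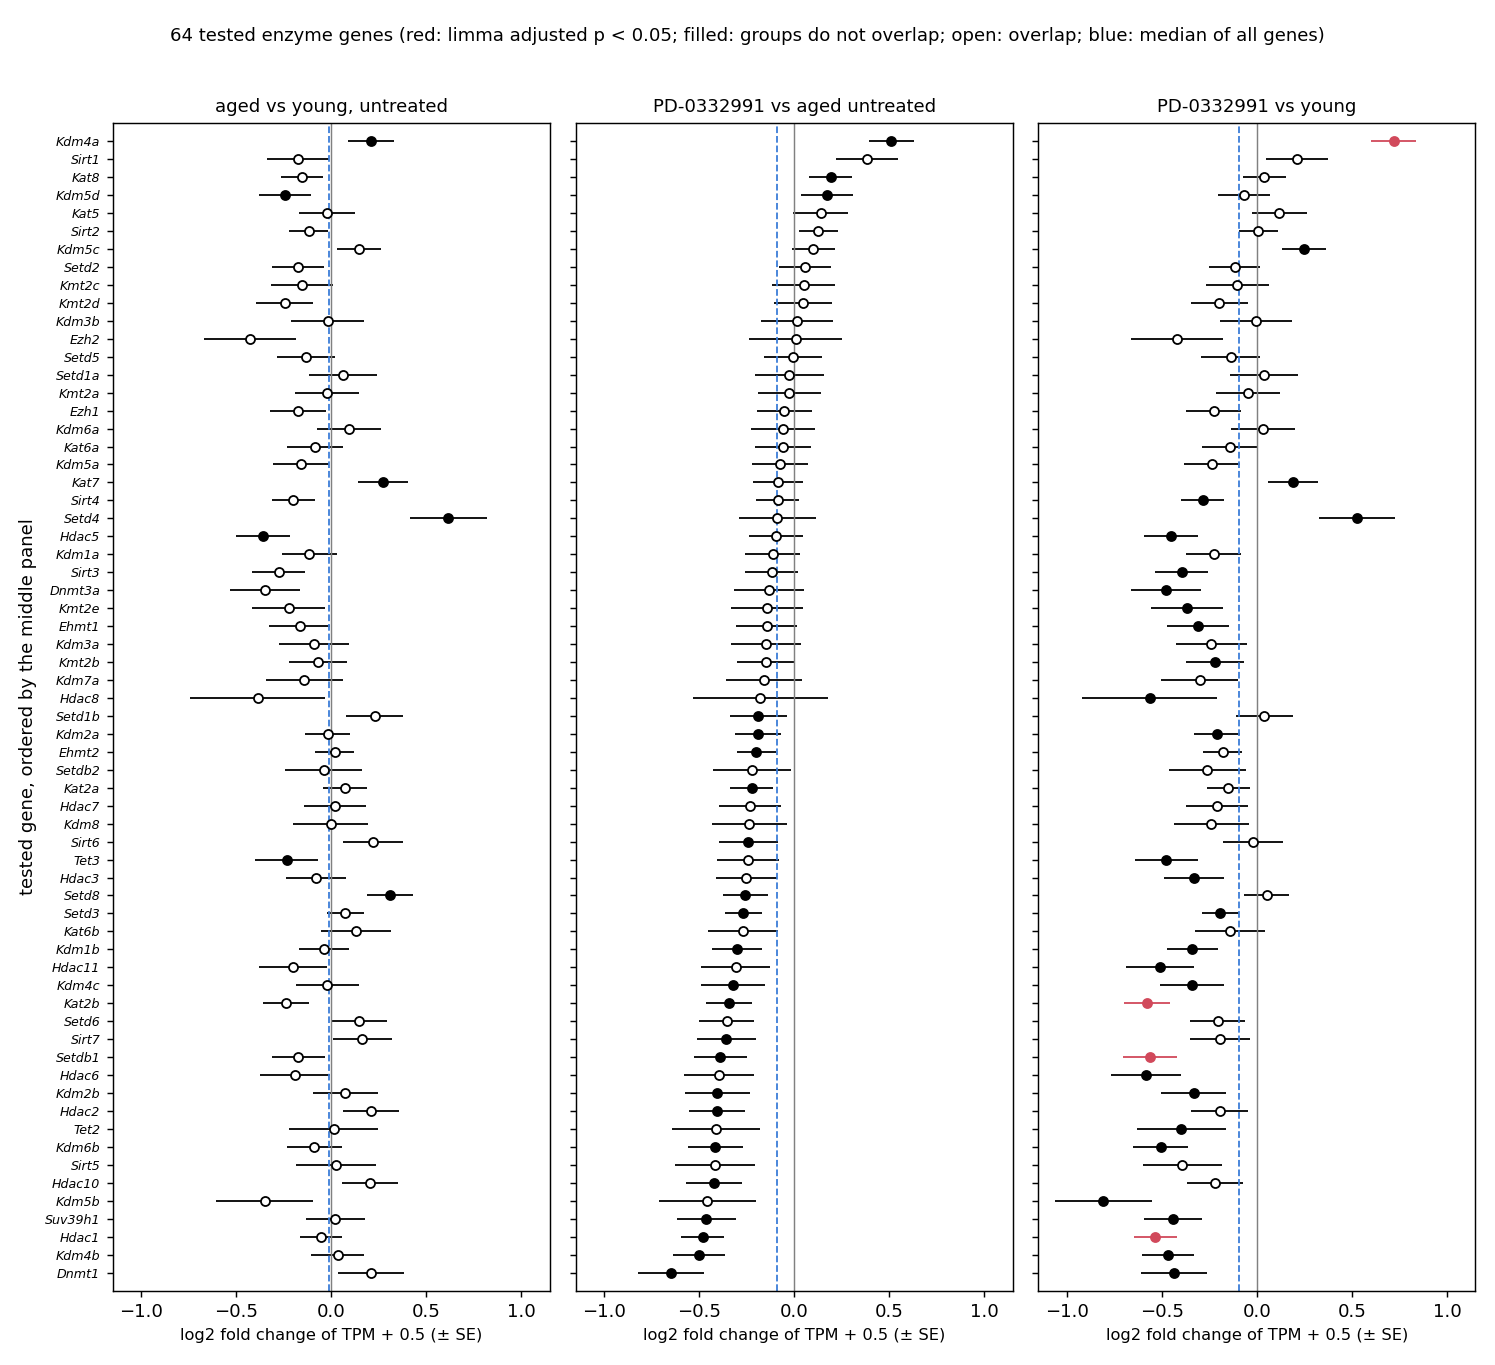
Log2 fold change (± SE, limma, on the TPM + 0.5 scale) of the 64 tested enzyme genes in the 3 comparisons, ordered by the treated against aged untreated difference. Filled points mark groups that do not overlap, red marks an adjusted p under 0.05 (Kdm4a, Kat2b, Setdb1 and Hdac1 in the right panel), and the dashed line is the median of all tested genes.

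Kdm4a, a demethylase of the JmjC family that takes methyl groups off histone H3 lysines, H3K9 among them, was the member with the smallest p in treated against young livers. It was at 4.99, 4.92 and 4.82 TPM in the young libraries 1 to 3, at 5.90, 5.77 and 5.56 in the aged untreated ones and at 9.37, 8.71 and 7.27 in the treated ones. No group overlapped another, and the treated libraries spread most (8.45 ± 1.075 TPM, mean ± SD, n = 3). Against young livers Kdm4a rose by 0.72 ± 0.12 (log2, SE; a ratio of means of 1.72; limma adjusted p = 0.00771), and the call held in all 16 alternative settings (0.65 to 0.84, adjusted p = 0.00287 to 0.0412). Against aged untreated livers its difference was 0.51 ± 0.12 (adjusted p = 0.0580), which was called with median-of-ratios scaling (adjusted p = 0.0333) and quantile normalization (0.0352). The age difference was 0.21 ± 0.12 (adjusted p = 0.450).

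The paralogs of Kdm4a had other patterns. Kdm4b was at 3.09, 2.37 and 2.62 TPM in young libraries, 2.997, 2.57 and 2.71 in aged untreated and 1.75, 1.88 and 1.78 in treated libraries, with all treated libraries below all untreated ones (treated against aged -0.50 ± 0.14, limma adjusted p = 0.0969). Kdm4c was at 1.25 to 1.52, 1.16 to 1.58 and 0.814 to 1.12 TPM, without overlap of the treated group, which was lost under both other scalings. Kdm4d was listed at 0.0618 TPM or less. Within a library Kdm4a made up 53.4% to 55.6% of the summed TPM of the 4 paralogs in young livers, 56.1% to 60.8% in aged untreated and 72.7% to 78.5% in treated livers, a share that no factor applied to a whole library can alter. Kdm4b made up 30.02% ± 3.2, 27.97% ± 1.3 and 16.2% ± 1.5 (mean ± SD, n = 3). In the GRCm38 annotation (GENCODE M21) Kdm4a lies on chromosome 4, from 118136957 to 118180043, and shares no exonic base with another gene.

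**Figure D3:**
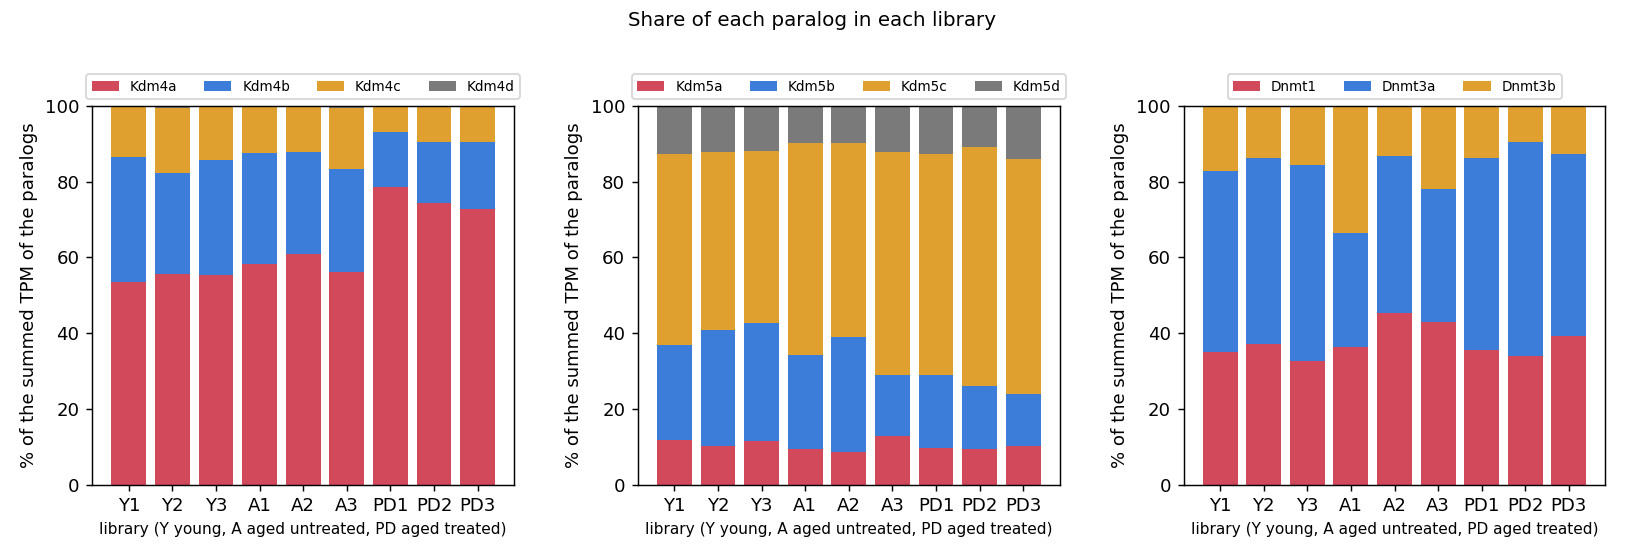
Share (% of summed TPM) of each paralog within the Kdm4, Kdm5 and DNA methyltransferase families in each library (Y young, A aged untreated, PD treated). Kdm4a takes 72.7% to 78.5% of its family in the treated libraries and 53.4% to 60.8% in the others. Kdm5c takes 58.3% to 63.1% in treated, 51.5% to 59.0% in aged untreated and 45.2% to 50.5% in young libraries.

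Class I deacetylases include the catalytic subunits of the NuRD, SIN3, CoREST and NCoR repressor complexes. Hdac1 was at 12.6, 11.4 and 12.52 TPM in young libraries, 11.2, 10.7 and 13.3 in aged untreated and 7.84, 8.35 and 8.54 in treated libraries. All treated libraries lay below all untreated ones, and young and aged untreated libraries overlapped. Against young livers Hdac1 fell by 0.53 ± 0.11 (log2, SE; limma adjusted p = 0.0184), and against aged untreated livers its difference was -0.48 ± 0.11 (adjusted p = 0.0583). The difference against aged untreated livers was -0.38 with the median of ratios (limma adjusted p = 0.106) and -0.39 with quantile normalization (0.104). Leaving out young replicate 1 (adjusted p = 0.0756) or 3 (0.0695), or treated replicate 1 (0.0582), 2 (0.0671) or 3 (0.0544), ended the call against young livers, at differences of -0.50 to -0.56.

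Hdac2, the partner of Hdac1 in the same complexes, was at 8.99, 9.51 and 10.8 TPM in young libraries, 9.69, 11.1 and 13.5 in aged untreated and 7.12, 8.88 and 9.47 in treated libraries. The treated libraries lay below the aged untreated ones but overlapped the young ones (treated against aged -0.41 ± 0.15, limma adjusted p = 0.184). With median-of-ratios or quantile scaling they also overlapped the aged untreated ones. Hdac3, the catalytic subunit of NCoR complexes and the highest class I member (14.9 TPM over all libraries), was at 15.2 to 16.8, 12.7 to 19.1 and 10.4 to 14.5 TPM, and Hdac8, the lowest, at 2.21 to 2.76, 0.967 to 3.59 and 0.864 to 2.11. The 4 genes summed to 38.3 to 42.4 TPM in young libraries, 34.97 to 49.6 in aged untreated and 29.4 to 32.7 in treated libraries. That sum was 23.3% lower in treated than in aged untreated livers, without overlap, and 17.3% and 18.5% lower, also without overlap, with the median of ratios and with quantile normalization.

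Among the other deacetylases, class IIa enzymes shuttle between nucleus and cytoplasm, and Hdac5 was the highest of them. It was at 11.2, 10.2 and 9.26 TPM in young libraries, 6.82, 7.94 and 8.85 in aged untreated and 7.57, 6.13 and 8.38 in treated libraries. Both aged groups lay below the young one (aged against young -0.36 ± 0.14, limma adjusted p = 0.270; treated against young -0.45 ± 0.14, 0.0780). Hdac9, which was too low to test, was at 0.135 to 0.174 TPM in young and at 0.0728 TPM or less in all aged libraries. Hdac6, a cytoplasmic deacetylase of tubulin, was at 5.34, 4.24 and 4.42 TPM in young libraries, 3.72, 3.92 and 4.42 in aged untreated and 3.95, 2.10 and 2.99 in treated libraries (treated against young -0.59 ± 0.19, limma adjusted p = 0.0800). Hdac10, a deacetylase of polyamines, lay at 4.24 to 4.83, 4.66 to 5.83 and 3.21 to 4.61 TPM. Hdac11, the only class IV member, was at 20.1, 21.5 and 16.5 TPM in young and at 12.6, 11.6 and 16.4 in treated libraries, without overlap but by a narrow gap that closed under both other scalings, while its aged untreated libraries spanned both (14.3 to 22.0 TPM). Of its exonic bases 17.9% lie opposite another gene, and the libraries' strand is not stated.

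Sirtuins are deacetylases that consume NAD+. They held 28.6% of the members' summed TPM, with Sirt3, the main deacetylase of mitochondria, at 53.5, 57.2 and 44.9 TPM in young libraries, 37.5, 39.4 and 51.7 in aged untreated and 36.8, 36.8 and 44.1 in treated libraries. Treated and young libraries of Sirt3 did not overlap, except with median-of-ratios scaling (-0.40 ± 0.14, limma adjusted p = 0.112), and aged untreated libraries overlapped both. Sirt1, a nuclear sirtuin that deacetylates transcription factors as well as histones, was at 1.49, 1.66 and 1.72 TPM in young libraries, 1.21, 1.74 and 1.24 in aged untreated and 1.68, 2.25 and 1.98 in treated libraries. It was among the few members that were higher in treated than in aged untreated livers (0.39 ± 0.16, limma adjusted p = 0.240), with overlap through aged untreated replicate 2, and without overlap under either other scaling. Sirt6, a chromatin-bound sirtuin, was at 1.69 to 2.21, 2.19 to 2.29 and 1.498 to 2.19 TPM. The other sirtuins ranged from 4.96 TPM (Sirt5) to 32.8 TPM (Sirt7).

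Lysine acetyltransferases include Kat2b (PCAF) and Kat2a (GCN5), alternative catalytic subunits of the SAGA and ATAC coactivator complexes. Kat2b was at 12.9, 11.8 and 13.9 TPM in young libraries, 10.02, 12.48 and 10.1 in aged untreated and 7.74, 8.63 and 8.92 in treated libraries. Treated libraries lay below all others, and aged untreated replicate 2 fell within the young range. Against young livers Kat2b fell by 0.58 ± 0.12 (log2, SE; limma adjusted p = 0.0182). Leaving out young replicate 1 (adjusted p = 0.0701) or 3 (0.0750), or treated replicate 1 (0.0596), 2 (0.0646) or 3 (0.0508), ended that call. Kat2a was at 6.22 to 6.87, 6.53 to 7.46 and 5.46 to 6.41 TPM, and its share of the pair was 34.0% ± 1.2 in young livers, 39.2% ± 1.7 in aged untreated and 41.2% ± 3.7 in treated livers (mean ± SD, n = 3).

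The MYST acetyltransferases showed other patterns. Kat8 (MOF), an acetyltransferase of histone H4, was at 12.6, 10.4 and 9.98 TPM in young libraries. It was at 9.36, 10.1 and 9.88 TPM in aged untreated and 11.3, 11.3 and 11.1 in treated libraries. The treated and aged untreated libraries did not overlap (0.19 ± 0.11, limma adjusted p = 0.382), but the young libraries overlapped both. Kat7 (HBO1) was at 2.85, 2.71 and 3.02 TPM in young libraries, 3.56, 4.04 and 3.12 in aged untreated and 3.17, 3.51 and 3.30 in treated libraries. Both aged groups of Kat7 lay above the young one (aged against young 0.27 ± 0.13, limma adjusted p = 0.363). Kat5 (TIP60) lay at 5.25 to 7.25 TPM with overlap between all groups, and Kat6b, the lowest of the family, at 0.724 to 1.40 TPM.

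**Figure D4:**
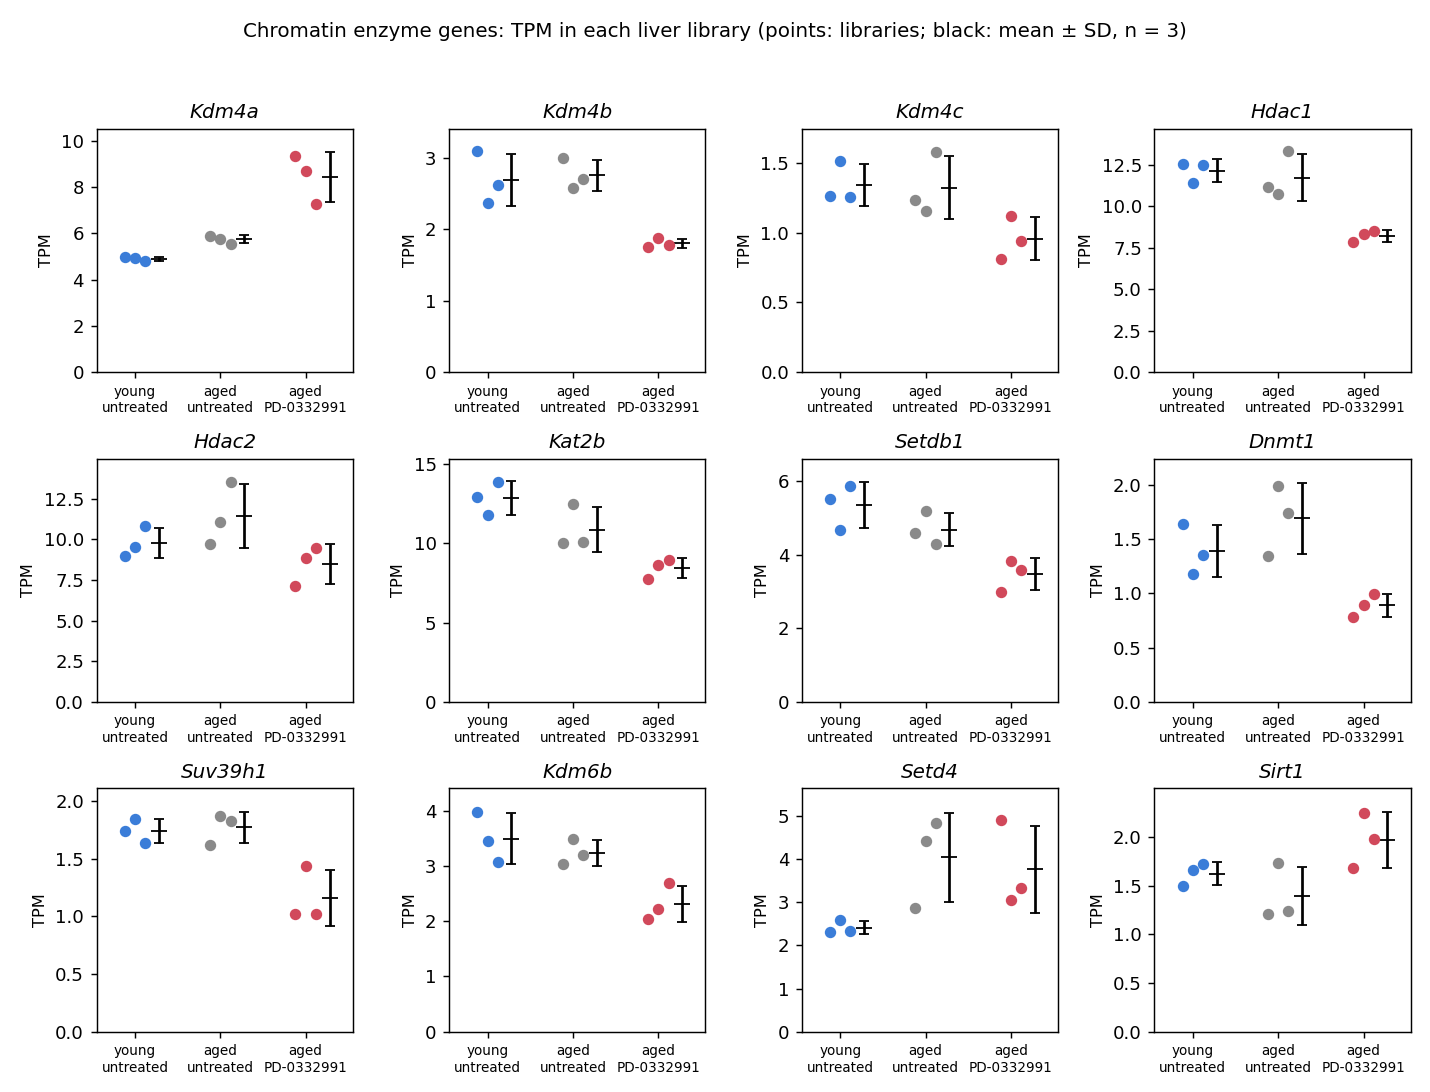
TPM of 12 enzyme genes in each library, with the mean ± SD of 3 libraries in black. Treated libraries lie above all others for Kdm4a (7.27 to 9.37 TPM) and below all others for Kdm4b, Kdm4c, Hdac1, Kat2b, Setdb1, Dnmt1, Suv39h1 and Kdm6b on the deposited scale; Kdm4c, Setdb1 and Suv39h1 overlap an untreated group under at least 1 other scaling.

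Methyltransferases of H3K9, the mark of silenced chromatin, include Setdb1, which silences retroelements together with Trim28. Setdb1 was at 5.52, 4.67 and 5.88 TPM in young libraries, 4.59, 5.18 and 4.28 in aged untreated and 2.98, 3.83 and 3.58 in treated libraries, with the treated ones below all others (overlapping the aged untreated ones with the median of ratios). Against young livers Setdb1 fell by 0.56 ± 0.14 (log2, SE; limma adjusted p = 0.0354), and against aged untreated livers its difference was -0.39 ± 0.14 (0.179). Its call was lost with the median of ratios (-0.45, adjusted p = 0.0849), with quantile normalization (0.0713), with no filter on low values (0.0559) and with the replicate number as a block (0.0699). It was also lost without young replicate 1 (0.119) or 3 (0.127), and without treated replicate 1 (0.104), 2 (0.0723) or 3 (0.0855).

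Suv39h1, which writes H3K9 trimethylation at pericentromeric repeats, was at 1.74, 1.84 and 1.63 TPM in young libraries, 1.62, 1.87 and 1.82 in aged untreated and 1.02, 1.43 and 1.02 in treated libraries. Treated libraries lay below all others, but overlapped the young ones with quantile normalization (treated against aged -0.46 ± 0.15, limma adjusted p = 0.152). Of the exonic bases of Suv39h1 14.6% lie opposite another gene. Its paralog Suv39h2 was at 0.0757 to 0.370 TPM over all libraries. Ehmt2 (G9a), the highest of the family, was at 12.9 to 14.5, 13.2 to 14.6 and 11.4 to 13.0 TPM. The 6 genes of the family summed to 27.1 to 28.7 TPM in young libraries, 26.4 to 27.3 in aged untreated and 21.0 to 23.1 in treated libraries. The treated sum was 17.4% below the aged untreated one without overlap, and 11.1% and 11.8% below it, also without overlap, with the median of ratios and with quantile normalization.

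Methyltransferases of H3K4 (KMT2 and SETD1), the mark of active promoters, and the Polycomb enzymes Ezh1 and Ezh2, which write H3K27 methylation, had family sums that overlapped between all groups on the deposited scale. The sum of Ezh1 and Ezh2 was 18.0% lower in aged untreated than in young livers with overlap. With quantile normalization it was 17.6% lower without overlap. In the first family, levels ran from 0.868 TPM (Kmt2c) to 6.98 TPM (Setd1a), of whose exonic bases 52.3% are shared with other genes. Kmt2a (MLL1) was at 0.984 to 1.43, 1.01 to 1.30 and 1.01 to 1.24 TPM. The family sum was 6.56% lower in treated than in aged untreated livers with overlap, and 0.464% and 2.65% higher under the other scalings. Ezh1 was at 3.26 to 4.05, 2.71 to 3.54 and 2.74 to 3.37 TPM and made up 75.7% ± 2.4, 80.8% ± 5.9 and 80.0% ± 7.1 of the pair (mean ± SD, n = 3). Ezh2, the form of dividing cells, was at 1.14, 1.20 and 1.22 TPM in young libraries and at 0.503, 1.14 and 0.699 in aged untreated and 0.772, 1.18 and 0.438 in treated ones, which each held 1 library within or near the young range (aged against young -0.43 ± 0.24, limma adjusted p = 0.448).

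Among the other SET domain genes, Setd8 (now Kmt5a, on chromosome 5 from 124439930 to 124462308) writes H4K20 monomethylation in dividing cells. It was at 9.74, 8.07 and 9.82 TPM in young libraries, 11.03, 10.9 and 12.6 in aged untreated and 8.78, 10.3 and 9.58 in treated libraries. The aged untreated libraries lay above all others (aged against young 0.31 ± 0.12, limma adjusted p = 0.258; treated against aged -0.26 ± 0.12, 0.278), but not above the treated ones with either other scaling. Setd4 was at 2.31, 2.59 and 2.33 TPM in young libraries, 2.87, 4.42 and 4.83 in aged untreated and 4.90, 3.06 and 3.32 in treated libraries. Both aged groups of Setd4 lay above the young one and spread widely (aged against young 0.62 ± 0.20, limma adjusted p = 0.184; treated against young 0.53 ± 0.20, 0.135). Setd3, an actin histidine methyltransferase and the highest gene of this family, was at 25.0 to 28.5, 27.3 to 29.3 and 21.2 to 25.0 TPM. Setd7, the lowest, was at 0.567 to 0.891, 0.671 to 0.839 and 0.427 to 0.619 TPM.

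Other demethylases differed by gene. Kdm6b (JMJD3), an H3K27 demethylase induced in inflammation, was at 3.97, 3.45 and 3.06 TPM in young libraries, 3.03, 3.49 and 3.20 in aged untreated and 2.04, 2.21 and 2.68 in treated libraries, with the treated ones below all others (treated against young -0.51 ± 0.14, limma adjusted p = 0.0594). The X-linked Kdm6a (UTX) was at 1.26 to 1.81 TPM in young libraries, 1.32 to 1.86 in aged untreated and 1.41 to 1.61 in treated libraries. Kdm1a (LSD1), an amine oxidase of CoREST complexes, was at 3.62 to 4.89, 3.65 to 3.98 and 2.96 to 3.86 TPM, and the H3K9 demethylase Kdm3a at 2.30 to 3.34, 2.09 to 3.41 and 1.96 to 2.46 TPM.

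The Kdm5 enzymes remove H3K4 methylation. Kdm5c, X-linked and the highest demethylase, was at 9.13, 7.58 and 8.78 TPM in young libraries, 10.1, 9.70 and 8.52 in aged untreated and 9.67, 10.8 and 10.04 in treated libraries (treated against young 0.25 ± 0.12, no overlap, limma adjusted p = 0.212). Kdm5b was at 4.53, 4.97 and 6.07 TPM in young libraries, 4.46, 5.68 and 2.34 in aged untreated and 3.22, 2.86 and 2.19 in treated libraries. Aged untreated replicate 3 of Kdm5b sat with the treated libraries, and without it the treated against aged difference was called, the only member call in that comparison when 1 library was left out. The Y-linked Kdm5d was at 1.97 to 2.34 TPM in young libraries, 1.75 to 1.83 in aged untreated and 1.85 to 2.27 in treated libraries. Summed, the 18 demethylases were 5.80% lower in treated than in aged untreated livers with overlap, and 1.36% and 2.31% higher under the other scalings.

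DNA methyltransferases were among the lowest families. Dnmt1, which copies methylation onto newly made DNA and is a known E2F target, was at 1.64, 1.17 and 1.35 TPM in young libraries, 1.34, 1.99 and 1.74 in aged untreated and 0.784, 0.890 and 0.994 in treated libraries. All treated libraries lay below all others, and of all tested members Dnmt1 had the lowest log2 difference between treated and aged untreated livers (-0.65 ± 0.17, limma adjusted p = 0.0916). The difference for Dnmt1 was -0.57 with the median of ratios (limma adjusted p = 0.121) and -0.52 with quantile normalization (0.155). The de novo enzyme Dnmt3b, too low to test, was at 0.811, 0.439 and 0.649 TPM in young libraries, 1.25, 0.586 and 0.887 in aged untreated and 0.304, 0.253 and 0.320 in treated libraries, also without overlap of the treated group. Dnmt3a, the other de novo enzyme, was at 2.23, 1.56 and 2.16 TPM in young libraries, 1.12, 1.82 and 1.43 in aged untreated and 1.12, 1.48 and 1.22 in treated libraries. Its share of the family was 49.5% ± 2.1 in young livers, 35.6% ± 5.6 in aged untreated and 51.7% ± 4.2 in treated livers (mean ± SD, n = 3). Dnmt3l, a germ cell cofactor, was listed at 0 in every library.

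The family sum of the DNA methyltransferases was 3.71 to 4.39 TPM in aged untreated and 2.20 to 2.62 in treated libraries. It was 39.5% lower without overlap, 34.7% lower without overlap with the median of ratios, and 22.1% lower with overlap for the 2 tested genes with quantile normalization. TET dioxygenases oxidise methylcytosine. Tet3 was at 1.91, 1.44 and 1.43 TPM in young libraries, 1.07, 1.40 and 1.35 in aged untreated and 0.923, 0.977 and 1.10 in treated libraries (treated against young -0.48 ± 0.16, no overlap, limma adjusted p = 0.102). Its lack of overlap between aged and young libraries did not hold under the other scalings. Tet2 was at 0.844 to 1.35, 0.818 to 1.86 and 0.660 to 0.820 TPM, and Tet1 at 0.0210 TPM or less in every library.

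**Figure D5:**
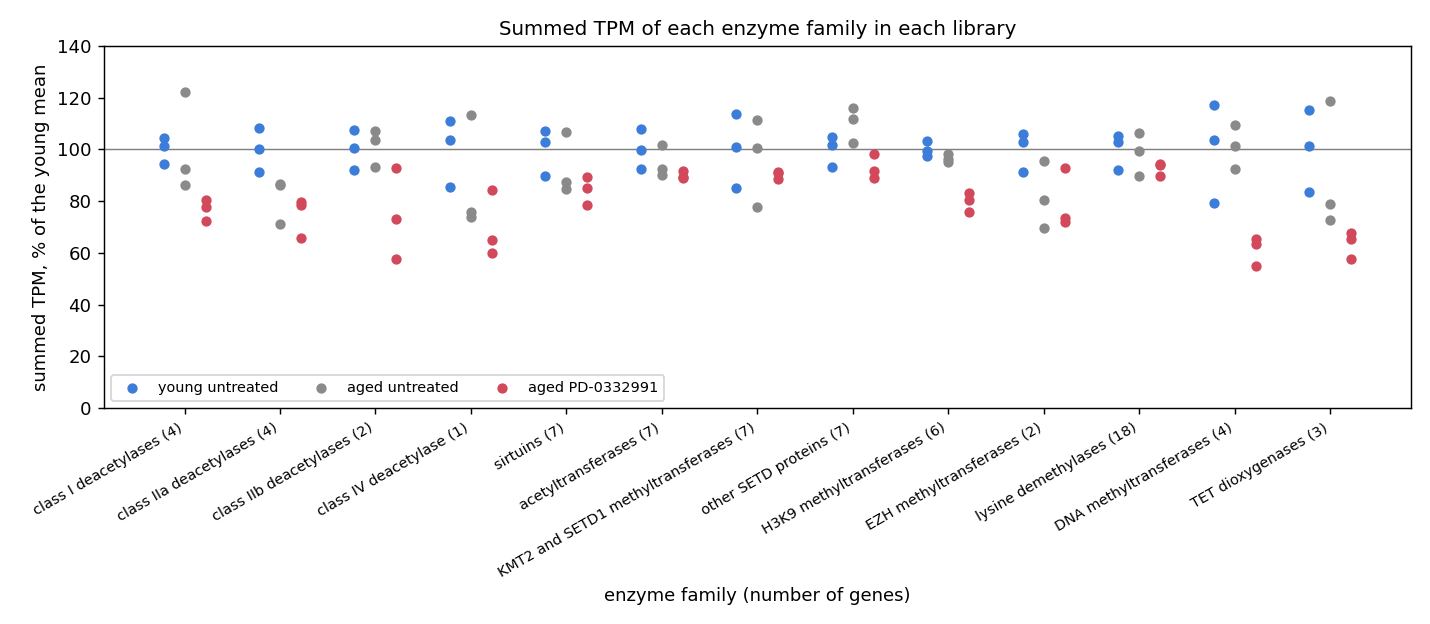
Summed TPM of each enzyme family in each library, as % of the young mean, with the number of genes in parentheses. Treated libraries lie below all aged untreated ones for class I and class IIb deacetylases, other SETD proteins, H3K9 methyltransferases, DNA methyltransferases and TET dioxygenases, and overlap them for the other 7 families. Class IIb sums overlapped under both other scalings (-20.9% and -19.9%), and TET and DNA methyltransferase sums under quantile normalization (-19.6% and -22.1%).

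Genes that work with these enzymes were taken from 10 lists (complex subunits, enzymes outside the symbol rule, readers and donor metabolism), of which 215 genes were listed and 190 tested. With age 1 of them was called higher (0.526%, beside 0.650% of all genes) and none lower (beside 0.453%). In treated against aged untreated livers none was called higher (beside 0.610% of all genes) and 2 were called lower (1.05%, beside 0.837%). In treated against young livers 5 were called higher and 6 lower (2.63% and 3.16%, beside 2.59% and 4.29%). At an unadjusted p under 0.05 there were 16 higher and 10 lower with age (8.42% and 5.26% of the 190, beside 7.56% and 7.43% of all genes). In treated against aged untreated livers there were 9 and 29 (4.74% and 15.3%, beside 4.96% and 13.3%), and in treated against young livers 13 and 32 (6.84% and 16.8%, beside 6.87% and 18.0%). These shares lay near those of all genes. The 190 genes had a median difference of -0.10 in treated against aged untreated livers, near the -0.09 of all genes.

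Chd4, the remodeller subunit that joins Hdac1 and Hdac2 in NuRD, was at 10.8, 10.03 and 10.1 TPM in young libraries, 9.19, 11.7 and 9.91 in aged untreated and 6.79, 5.59 and 6.57 in treated libraries. It fell by 0.66 ± 0.12 (log2, SE) against aged untreated livers (limma adjusted p = 0.0252) and by 0.67 ± 0.12 against young livers (0.0110). The first call was lost without aged untreated replicate 2 (0.0937) and without treated replicate 1 (0.0517), 2 (0.109) or 3 (0.0814), with no filter on low values (0.0567), with the replicate number as a block (0.0688) and with only the 6 libraries compared (0.0916). The second was lost without young replicate 1 (0.0534) or treated replicate 2 (0.0550). Of the 26 tested subunits of deacetylase complexes, 22 (84.6%) were below 0 in treated against aged untreated livers, beside 66.7% of all genes, and 18 lay below the median of all genes. That share was the highest of the 10 related lists. The lowest was 52.0%, for subunits of acetyltransferase complexes, and over all 190 related genes it was 70.0%. These shares are on the deposited scale only. Mta3, another NuRD subunit, was called lower against young livers (6.05 ± 0.66 to 3.37 ± 1.11 TPM, mean ± SD, n = 3; limma adjusted p = 0.0374), and so were the Polycomb genes Pcgf2 (2.97 ± 0.91 to 1.30 ± 0.17 TPM; 0.0200) and Cbx7 (2.23 ± 0.23 to 1.11 ± 0.43 TPM; 0.0317).

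Among related genes that were not called, Trim28, the partner of Setdb1, was at 17.1 to 18.5 TPM in young libraries, 21.0 to 22.3 in aged untreated and 16.0 to 16.8 in treated libraries (treated against aged -0.38 ± 0.09, limma adjusted p = 0.0594; aged against young 0.28 ± 0.09, 0.165). The arginine methyltransferase Prmt1 was at 9.47 to 12.6, 13.7 to 13.8 and 10.1 to 10.96 TPM (limma adjusted p = 0.123 and 0.198), with the aged untreated libraries above all others and the treated ones within the young range. Wdr5, a shared subunit of the H3K4 methyltransferase complexes, was at 9.34 to 12.3 TPM in aged untreated and 7.15 to 7.92 in treated libraries (-0.45 ± 0.12, limma adjusted p = 0.0974), and Jade2, a subunit of Kat7 complexes, at 0.948 to 1.74 and 0.439 to 0.606 (-0.93 ± 0.23, 0.0685). Setmar, Jmjd1c and Morc3 had positive differences in treated against aged untreated livers (0.48, 0.37 and 0.34), and Jmjd4, Psip1, Hat1, Cbx1 and Ncoa3 negative ones (-0.49, -0.37, -0.39, -0.31 and -0.24), none of them called. Ing4 was at 22.6 to 25.0 TPM in young and 15.4 to 22.5 in aged untreated libraries (-0.41 ± 0.14, limma adjusted p = 0.188).

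Apart from Gadd45b, a stress-induced gene linked to DNA demethylation, the other calls were of donor and cofactor enzymes. Gnmt, which consumes S-adenosylmethionine, was called higher with age (1107 ± 9.07 to 1550 ± 42.9 TPM, mean ± SD, n = 3; 0.49 ± 0.08, limma adjusted p = 0.0195) and in treated against young livers (0.30 ± 0.08, 0.0496; 0.12 with quantile normalization, adjusted p = 0.436). Nnmt, which methylates nicotinamide, was at 53.6, 105 and 84.9 TPM in young libraries, 275, 144 and 168 in aged untreated and 248.8, 341 and 331 in treated libraries, and rose by 1.95 ± 0.29 (log2, SE) in treated against young livers (limma adjusted p = 0.00949). Idh3a, a mitochondrial enzyme that makes 2-oxoglutarate, fell by 0.89 ± 0.14 in treated against aged untreated livers (11.9 ± 0.75 to 6.23 ± 0.70 TPM; limma adjusted p = 0.0161) and by 0.58 ± 0.14 against young livers (0.0325). In treated against young livers Mat1a, Acmsd and Gadd45b were also called higher and Nmnat3 lower, with log2 differences of 0.45, 1.11, 1.32 and -0.97.

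Leaving out 1 library ended each of these related calls at least once. Of 15 or 16 alternatives in all, 12 ended the call of Gnmt against young livers, 9 those of Cbx7, Mta3, Mat1a and Idh3a against young livers, 8 that of Nmnat3, 7 those of Acmsd and of Gnmt with age, 6 that of Gadd45b and 4 those of Pcgf2 and of Idh3a against aged untreated livers. Nnmt was lost only without treated replicate 2 (limma adjusted p = 0.0517). Idh3a against aged untreated livers was lost without aged replicate 2 (0.0525) and treated replicate 2 (0.0761) or 3 (0.0659). Gnmt was lost with age without any young replicate (0.0581 to 0.0869) or aged replicate 1 (0.0874), and against young livers without any of the 6 libraries (0.0892 to 0.140), as was Mat1a (0.0620 to 0.114). Pcgf2 was lost without young replicate 1 or 3 or treated replicate 2 or 3 (0.0737 to 0.0889). Of the 6 libraries compared, all but treated replicate 1 ended the calls of Idh3a against young livers (0.0510 to 0.127), Mta3 (0.0686 to 0.136) and Nmnat3 (0.0835 to 0.123), all but treated replicate 3 that of Cbx7 (0.0648 to 0.118), and all but young replicate 3 those of Acmsd (0.0624 to 0.0777) and Gadd45b (0.0511 to 0.0943).

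Markers of other cells moved beside these differences, and in whole tissue fewer cells of a type and less RNA per cell cannot be told apart. The 14 genes of dividing cells, 5 of them tested, summed to 28.9 to 34.0 TPM in young libraries, 26.3 to 48.7 in aged untreated and 22.1 to 24.7 in treated libraries. On the deposited scale the treated libraries lay below all aged untreated ones in 7 of the 14 (beside 16.7% of all tested genes). That count includes genes too low to test, so the 2 shares are not on the same base. Of the 5 tested, 2 were called lower (beside 0.837%). The 10 Kupffer cell and macrophage markers summed to 113 to 181, 107 to 158 and 98.8 to 107 TPM. Of these 10, 6 lay below the aged untreated libraries without overlap on the deposited scale (beside 16.7% of all genes), and 5 were called lower against young livers (beside 4.29%). Listed neutrophil markers (7) summed to 3.01 to 3.85 TPM in young libraries, 9.15 to 25.6 in aged untreated and 24.3 to 34.1 in treated libraries. Endothelial (71.9 to 99.8 TPM), stellate (91.9 to 151), bile duct (9.53 to 22.8) and lymphocyte (2.63 to 8.09) sums overlapped between aged untreated and treated libraries. Against young libraries, the comparison that holds the 4 called members, the treated sums lay lower without overlap on the deposited scale for stellate (91.9 to 135 TPM, beside 140 to 148), bile duct (9.53 to 15.0, beside 17.3 to 21.1), lymphocyte (2.63 to 4.34, beside 5.11 to 6.45), Kupffer cell and dividing cell markers, and higher for neutrophil markers. The factors of the median of ratios were 0.934 to 0.965 in treated and 1.02 to 1.06 in young libraries. Divided by these factors, the stellate and Kupffer cell sums overlap between treated and young libraries. The endothelial sums overlapped. In that comparison all 3 tested neutrophil markers were called higher (beside 2.59% of all genes). Called lower were 1 of 10 tested stellate and 1 of 5 tested dividing cell markers (beside 4.29%). The part of these cells in the levels of Dnmt1, Hdac1, Kat2b, Setdb1, Suv39h1 and Kdm4a was not tested.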

How the data were processed

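Liver RNA of 9 libraries was sequenced. Per the submitters' processing notes, the authors used kallisto and mm10, and they deposited TPM values per gene symbol. Their versions, the annotation and the strand were not given in the sources used here. TPM is relative within a library and keeps no depth, so the precision is known only from the 3 replicates. Of 23444 rows per table, 4 repeated symbols were left out. Here log2(TPM + 0.5) was fitted with limma 3.58.1 (R 4.3.3; all 9 libraries, group only, trended robust variances, two-sided, Benjamini-Hochberg over 10161 genes). The fit was tested on simulated data. Alternatives changed the scaling, pseudocount, filter, variance model and libraries. Replicate numbers pair no libraries by the labels. Named genes were the members called, up to 4 per direction and comparison with the smallest p without overlap, the highest and lowest of each family, a list of well-known members, related genes called, and up to 2 per related list. The symbol rule uses no values, but members and lists were chosen with earlier results of these data known.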

Additional observations from a re-analysis of the deposited data

How the results depend on the processing

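No member was called with age in any setting. In treated against aged untreated livers the count of 0 members became 1 with median-of-ratios scaling and with quantile normalization (Kdm4a) and with array weights (Hdac1), and ran from 0 to 1 when 1 library was left out. Over all genes, the 147 calls became 174, 144 and 271 in these settings, and ran from 7 to 392 with 1 library left out. Against young livers the 4 calls became 10 with array weights and 9 with only the 6 libraries compared, and ran from 1 to 4 when 1 library was left out. Calls over all genes rose likewise, from 699 to 1354 and 1293, and ran from 151 to 473 with 1 library left out. Members without overlap that were lower in treated than in aged untreated livers fell from 20 to 8 (median of ratios) and 9 (quantile), and against young livers from 26 to 16 and 16. With quantile normalization 5 members were higher in treated than in aged untreated livers and 5 lower with age (both chosen after seeing the data). Each is 7.81% of the members, beside 9.48% and 10.7% of all genes. Related genes called in treated against aged untreated livers (2) numbered 0 with no filter on low values, 6 with array weights and 1 with only 6 libraries, and 0 to 7 with 1 library left out (7 without aged untreated replicate 3). Over all genes, the 147 calls became 29, 271 and 35, and 392 without aged untreated replicate 3. Against young livers the 11 calls became 7 (quantile), 5 (no filter), 7 (a filter of 5 TPM) and 22 (array weights), and 0 to 7 with 1 library left out (0 without treated replicate 2). The 699 calls over all genes became 618, 495, 518 and 1354, and 151 without treated replicate 2. With age the 1 call became 0 with quantile normalization, 0 without trended variances, 0 with 6 libraries and 5 with array weights, and 0 to 7 with 1 library left out (7 without aged untreated replicate 3). All genes called with age went from 112 to 126, 66, 49 and 490, and to 696 without aged untreated replicate 3. The share of all promoters with an E2F match was 1.96% in the 250 bases before the start alone, and that of the members 3.45%. The causes were not tested.

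With the replicate number as a block, 3 members (Hdac1, Kat2b and Kdm4a) were called against young livers, and the related genes called numbered 1 against aged untreated and 5 against young livers. Over all genes that setting gave 60 and 492 calls. Libraries with the same number deviated together with correlations of -0.22 to 0.17, so the numbers were not taken as pairs; in treated against young livers each library correlated best with its own number (0.133, 0.0712 and 0.0763), a hint from the data only. Of the values of 39 pairs of a named gene and a comparison, 482 kept their side of the threshold, 113 lost the call, 12 gained one and 0 reversed. With no filter on low values 71 members were tested, and Hdac1, Kat2b and Kdm4a were called against young livers, beside 495 of all 16836 genes tested.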
